A study of Mus musculus with 9 samples.

Results

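The transcripts of 10 genes of hypoxia-inducible factor (HIF) signalling and oxygen sensing were followed in mouse macrophages. They are the HIF alpha subunits Hif1a and Epas1, their partner Arnt, the prolyl hydroxylases Egln1, Egln2 and Egln3, the asparaginyl hydroxylase Hif1an, the ubiquitin ligase subunit Vhl, and the HIF targets Vegfa and Bnip3. The members were chosen by gene symbol, through the Ensembl identifier of each row, and all 10 were found once among the 55655 rows of both deposited tables. The macrophages were grown from femur and tibia marrow of wild type C57BL/6 mice aged 6-8 weeks, in medium with 10 ng/mL of the growth factor M-CSF for 7 days. M0 macrophages received no further stimulus. M1 macrophages, the classically activated state, were polarized with lipopolysaccharide (LPS), a bacterial cell wall component, and interferon-γ for 12 h. M1+PBM macrophages received the same stimulus and photobiomodulation (PBM), an irradiation with near-infrared laser light. Each of the 3 groups had 3 libraries, made from extracted total RNA after enrichment of mRNA. Resting cells with irradiation were not analysed here.

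HIF is a pair of an oxygen-labile alpha subunit and a stable beta subunit that binds DNA at hypoxia response elements. When oxygen is present, the Egln prolyl hydroxylases mark the alpha subunit, Vhl binds the mark and the protein is degraded, while Hif1an blocks the contact with coactivators. In macrophages, inflammatory stimuli also raise Hif1a transcription under normal oxygen, and HIF-1α is known for driving glycolysis and inflammatory genes there. RNA abundance does not measure the amount or activity of the HIF protein, which is set largely after translation.

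Promoter sequences are shown for a pair of genes, that of Hif1a because its RNA carries the main difference between the groups, and that of Bnip3 because it is a HIF target among the members. They are RefSeq sequences on GRCm38.p6, taken from the bases before an annotated transcription start and written 5′ to 3′ on the strand of the gene. Capitals mark the letters ACGTG or GCGTG, the core of a hypoxia response element, on either strand. The palindrome CACGTG holds ACGTG on both strands and was counted once.
Hif1a, chr12:73907617-73907866, plus strand: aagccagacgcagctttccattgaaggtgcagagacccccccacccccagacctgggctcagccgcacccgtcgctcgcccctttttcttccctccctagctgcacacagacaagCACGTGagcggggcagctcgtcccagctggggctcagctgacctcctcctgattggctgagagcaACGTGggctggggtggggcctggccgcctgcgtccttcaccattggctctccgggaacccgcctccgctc
Bnip3, chr7:138909520-138909756, minus strand: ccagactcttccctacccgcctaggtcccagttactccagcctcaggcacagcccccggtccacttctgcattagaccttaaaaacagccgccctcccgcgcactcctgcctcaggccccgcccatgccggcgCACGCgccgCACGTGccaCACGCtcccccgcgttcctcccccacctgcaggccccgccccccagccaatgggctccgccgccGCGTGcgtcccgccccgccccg
The Hif1a window holds 2 ACGTG sites, centred 132 and 68 bases before the start, and no GCGTG. It overlaps no exon of GENCODE M21 and lies within the span of the gene, downstream of an earlier annotated start. The Bnip3 window holds 1 ACGTG site, 105 bases before the start, and 3 GCGTG sites, and its last 13 bases were left out because an annotated exon covers them. Of the 9 members with a window in the RefSeq table, 6 held ACGTG within the 250 bases before a start and 5 held GCGTG. Among all 27025 genes with a window, 18.5% held ACGTG and 30.9% held GCGTG, counted in the same way. The ACGTG sites of Egln1, 66 bases before the start, and Vegfa, 208 bases before, lie within annotated exons and were counted. These matches describe letters and are not binding sites.

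The values are FPKM, fragments scaled to transcript length and library depth, so levels can be set side by side between genes. The depth estimated from the steps of low FPKM values was 30750000 to 41990000 fragments per library. Summed over 7 macrophage markers, the FPKM was 6720 to 10100 in M0, 5260 to 8220 in M1 and 5470 to 7110 in M1+PBM. The sum over 8 M1 markers was 26.9 to 271 in M0, 804 to 1010 in M1 and 288 to 723 in M1+PBM. All 6 dendritic and all 6 erythroid markers were below an FPKM of 1 in every library, as were 6 of 7 lymphoid and 6 of 8 neutrophil markers. The neutrophil markers summed to 1.44 to 2.44 in M0, 8.94 to 28.1 in M1 and 6.44 to 15.0 in M1+PBM, mostly from S100a8, with Ly6g and S100a9 at 0 in every library. M0 replicate 3 stood apart, with a summed FPKM of 195 over 6 stromal markers, where the lowest M0 library had 5.69, and with a Tnf FPKM of 233, against 16.9 and 14.9 in the other M0 libraries. Same-numbered libraries of the 2 stimulated groups resembled each other: the X-inactivation transcript Xist had an FPKM of 11.6, 0.00154 and 55.7 in M1 replicates 1 to 3 and of 13.0, 0.00133 and 64.8 in M1+PBM. Ddx3y, a gene of the Y chromosome, had an FPKM of 3.45, 5.77 and 0 in M1 and of 3.79, 5.64 and 0 in M1+PBM. In M0, Xist was at 23.6, 0 and 0.0077 and Ddx3y at 4.5, 8.49 and 6.59, so replicate 3 of M0 differed in both from replicate 3 of the stimulated groups. Replicate 1 had both transcripts in all 3 groups, and replicate 2 had Ddx3y and almost no Xist in all 3. In comparisons with M0, the stimulus and the sex of the source animals are thus mixed in replicate 3. The part of sex in the differences from M0 was not tested. By these genes, replicates 2 and 3 of a stimulated group came from different animals, and the labels do not say how animals or cultures were assigned, so p-values measure the spread between these libraries.

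Hif1a (ENSMUSG00000021109), the alpha subunit of HIF-1, had an FPKM of 11.3, 10.4 and 16.7 in M0, of 49.7, 45.5 and 44.2 in M1, and of 20.5, 24.7 and 24.8 in M1+PBM. The 3 groups did not overlap, M1 was the highest, and M1+PBM lay between M1 and M0. The means were 12.8 ± 3.41, 46.5 ± 2.90 and 23.3 ± 2.41 (SD, n = 3 each). The mean of M1 was 3.62 times that of M0 and 1.99 times that of M1+PBM, and the mean of M1+PBM was 1.82 times that of M0. In bulk RNA, fewer cells that express a gene and less of its RNA per cell cannot be told apart.

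**Figure D1:**
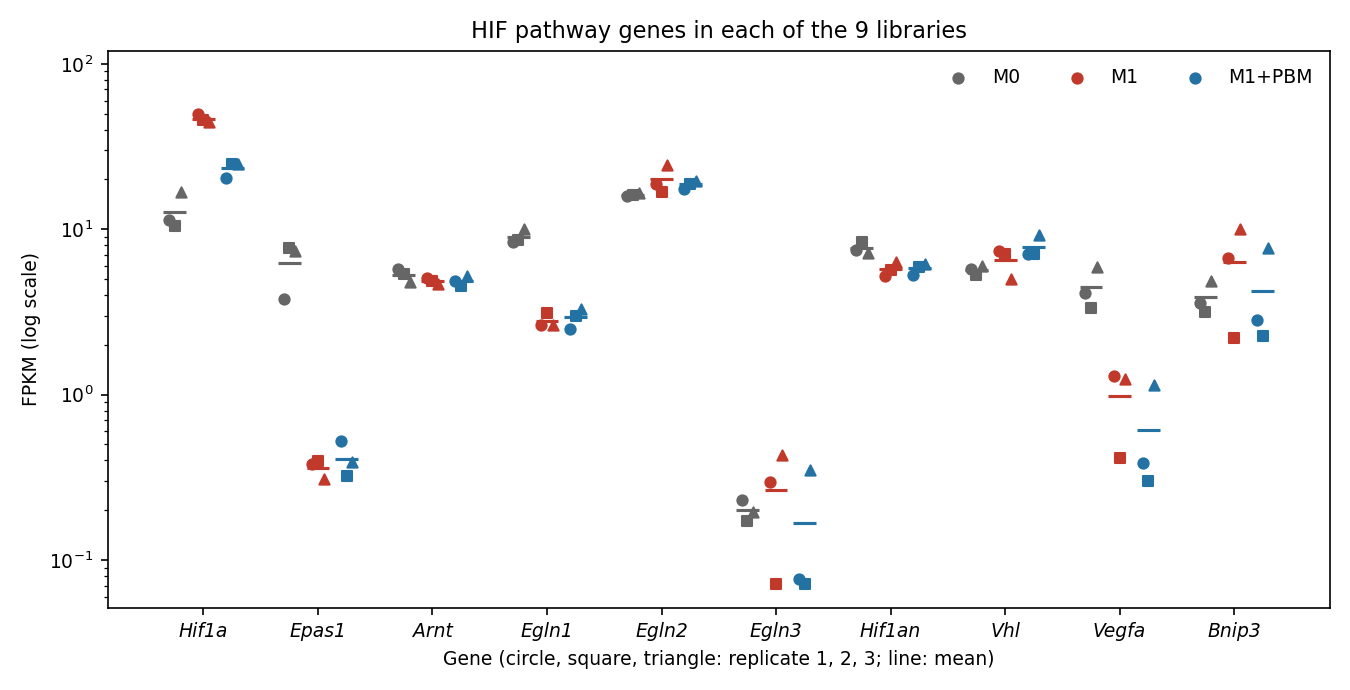
FPKM (vertical, log scale) of the 10 genes in each of the 9 libraries; symbols are replicates, colours are the groups M0, M1 and M1+PBM, and short lines are group means. Hif1a separated into 3 levels, with means of 12.8, 46.5 and 23.3, while Epas1, Egln1 and Vegfa lay lower in both stimulated groups than in M0.

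The comparison of M1+PBM with M1 asks what irradiation did to stimulated macrophages, and it is the only pair of groups within 1 table and therefore the only one tested. On log2(FPKM + 1), the fold change of Hif1a was -0.97 (SE 0.113, 95% interval -1.24 to -0.70). By replicate number, the difference was -1.24, -0.86 and -0.81, lower in 3 of 3 pairs. Its unadjusted p was 9.31e-05 by limma, the rank 3 of 12238 rows tested, and its Benjamini-Hochberg adjusted p was 0.38. Gm15283, annotated on the opposite strand across Hif1a, had an FPKM of 0.394 to 0.737 in M0, 0.932 to 1.48 in M1 and 0.778 to 1.12 in M1+PBM. The labels name strand-specific libraries, and the part of Gm15283 in the value of Hif1a was not tested. The exact two-sided permutation test of 3 libraries against 3, which does not pair the replicates, gave p = 0.1, the smallest value it can give. With the replicate number as a block, the adjusted p was 0.531 by limma.

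Of the 10 members, 8 reached an FPKM of 1 or more in 3 or more of the 6 libraries and were tested, and Epas1 and Egln3 were not. By limma, 0 of the 8 had an adjusted p under 0.05, where 0.00817% of all rows did. With an unadjusted p of 0.05 or less, 1 member was lower, where 1.45% of all rows were lower, and 0 were higher, where 2.99% were higher. The 1 member lower was Hif1a. The thresholds of the study were this p together with a log2 fold change of at least 1 in size. Applied to the limma values on log2(FPKM + 1), they called 0 of the 8 members, where 0.261% of all rows were called. The study's own calling was not repeated, and its heat map showed Hif1a as downregulated. The -0.97 of Hif1a lay just under the fold limit. When libraries were scaled by their median of ratios its log2 fold change was -1.05 and it passed both thresholds. Hif1a was also the only 1 of the 8 members whose M1 and M1+PBM libraries did not overlap, and among all rows 2.52% were lower and 8.51% higher without overlap.

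**Figure D2:**
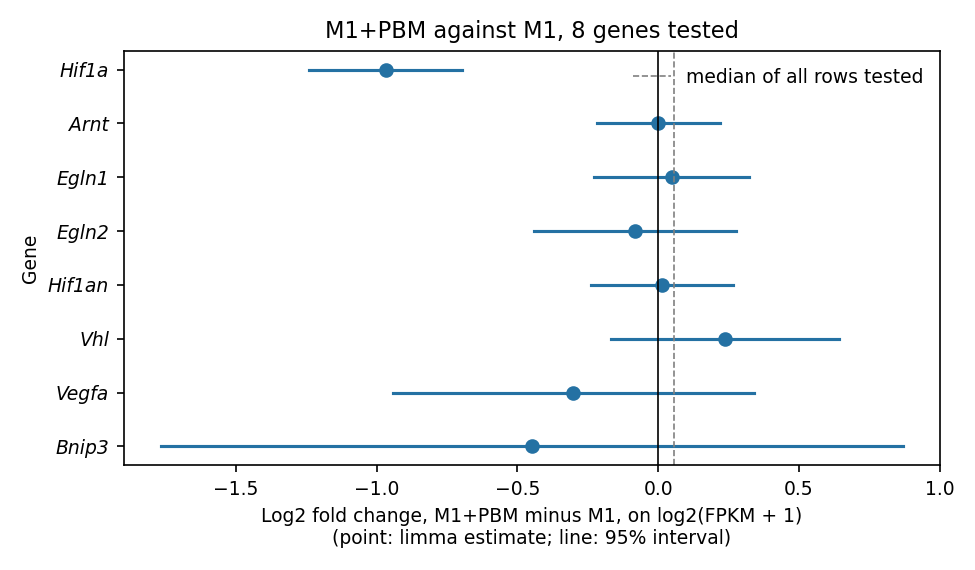
Log2 fold change of M1+PBM against M1 on log2(FPKM + 1) (horizontal) for the 8 genes tested (vertical); points are limma estimates, lines are 95% intervals, and the dashed line is the median of all rows tested, 0.06. Only the interval of Hif1a, -1.24 to -0.70, leaves out 0.

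Epas1, which encodes the alpha subunit of HIF-2, had an FPKM of 3.78, 7.73 and 7.35 in M0, of 0.379, 0.395 and 0.308 in M1, and of 0.521, 0.320 and 0.390 in M1+PBM. The M0 libraries were all above the other 6, and the stimulated groups overlapped. The M0 mean was 17.4 times the M1 mean and 15.3 times the M1+PBM mean. The stimulated libraries held at most 53.3 to 99.2 fragments of Epas1 each, by the longest transcript. The exact permutation p of M1+PBM against M1 was 0.5. The FPKM ratio of Hif1a to Epas1 was 1.35 to 2.99 in M0, 115 to 143 in M1 and 39.4 to 77.1 in M1+PBM, and these ranges did not overlap.

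Arnt, the shared beta subunit, had similar values in the 9 libraries. Its FPKM was 5.72, 5.37 and 4.83 in M0, 5.04, 4.84 and 4.67 in M1, and 4.85, 4.51 and 5.22 in M1+PBM, and all 3 groups overlapped. The log2 fold change of M1+PBM against M1 was 0.00 (SE 0.09, 95% interval -0.22 to 0.22; limma, adjusted p = 0.997). The FPKM ratio of Hif1a to Arnt was 1.94 to 3.46 in M0, 9.40 to 9.86 in M1 and 4.23 to 5.47 in M1+PBM. Gm42672, annotated within Arnt on the same strand, had an FPKM of 2.55 to 4.18 over the 9 libraries, and reads of Arnt may have been split with it.

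Among the prolyl hydroxylases, Egln1 encodes PHD2, the main oxygen sensor of HIF. It had an FPKM of 8.33, 8.58 and 10.0 in M0, of 2.63, 3.13 and 2.62 in M1, and of 2.50, 2.99 and 3.29 in M1+PBM. The M0 libraries lay above all others, by 3.21 times the mean of M1 and 3.06 times that of M1+PBM, while M1 and M1+PBM overlapped. Between M1+PBM and M1 the log2 fold change was 0.05 (SE 0.115, 95% interval -0.23 to 0.32; limma, adjusted p = 0.956).

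Egln2, which encodes PHD1, was the highest of the hydroxylases in every group. Its FPKM was 15.9, 16.0 and 16.5 in M0, 18.7, 16.9 and 24.5 in M1, and 17.5, 18.8 and 19.7 in M1+PBM. All the stimulated libraries were above the M0 libraries, by a small margin, and M1 and M1+PBM overlapped. The log2 fold change between the stimulated groups was -0.08 (SE 0.149, 95% interval -0.44 to 0.28; limma, adjusted p = 0.935). The FPKM ratio of Egln2 to Egln1 was 1.65 to 1.92 in M0, 5.40 to 9.35 in M1 and 5.98 to 6.98 in M1+PBM.

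Egln3 encodes PHD3, an enzyme that HIF itself induces in many cells. It was the lowest of the members, with an FPKM of 0.231, 0.172 and 0.196 in M0, 0.296, 0.0716 and 0.432 in M1, and 0.0764, 0.0713 and 0.352 in M1+PBM. The groups overlapped, and these values rest on at most 7 to 36 fragments per library. The exact permutation p of M1+PBM against M1 was 0.6.

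Hif1an, which encodes the asparaginyl hydroxylase FIH, had an FPKM of 7.48, 8.42 and 7.18 in M0, 5.23, 5.64 and 6.33 in M1, and 5.29, 5.95 and 6.16 in M1+PBM. The M0 libraries were the highest, and the stimulated groups overlapped throughout. Its log2 fold change of M1+PBM against M1 was 0.02 (SE 0.105, 95% interval -0.24 to 0.27; limma, adjusted p = 0.979). Vhl, which recognizes the hydroxylated alpha subunits, had an FPKM of 5.74, 5.32 and 5.98 in M0, 7.35, 7.09 and 5.01 in M1, and 7.06, 7.06 and 9.25 in M1+PBM. The M1+PBM libraries of Vhl lay above all M0 libraries, and M1 overlapped both. Its log2 fold change of M1+PBM against M1 was 0.24 (SE 0.169, 95% interval -0.17 to 0.64; limma, adjusted p = 0.900).

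Vegfa, an angiogenic growth factor and HIF target, had an FPKM of 4.11, 3.36 and 5.90 in M0, 1.29, 0.411 and 1.24 in M1, and 0.387, 0.301 and 1.14 in M1+PBM. M0 was above both stimulated groups without overlap, by 4.56 times the mean of M1 and 7.32 times that of M1+PBM. Vegfa and Hif1a thus stood in opposite orders between M0 and M1. The M1 and M1+PBM libraries of Vegfa overlapped, with a log2 fold change of -0.30 (SE 0.266, 95% interval -0.94 to 0.34; limma, adjusted p = 0.900).

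Bnip3, a HIF target that marks mitochondria for autophagy, varied widely between replicates. Its FPKM was 3.56, 3.17 and 4.88 in M0, 6.74, 2.19 and 10.1 in M1, and 2.84, 2.26 and 7.65 in M1+PBM, and all groups overlapped. Replicate 2 was the lowest and replicate 3 the highest in each of the 3 groups. By replicate number the difference between M1+PBM and M1 was -1.01, 0.03 and -0.36 on log2(FPKM + 1). The log2 fold change was -0.45 (SE 0.548, 95% interval -1.77 to 0.87; limma, adjusted p = 0.905). This interval holds both a lowering as large as that of Hif1a and an increase, but its fit does not pair the replicates. With the replicate number as a block, the adjusted p of Bnip3 was 0.577 by limma. With 1 library left out, the log2 fold change of Bnip3 ranged from -0.96 (without M1 replicate 2) to -0.06 (without M1 replicate 3).

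The differences from M0 were described without a test, because the M0 libraries stand in a table made separately. Both stimulated groups were set against the same M0 libraries, so their differences are not independent of each other. Between M1 and M0, 4 of the 9 members with enough signal were at least 2-fold apart on log2(FPKM + 1) without overlap. Hif1a was higher, with a log2 difference of 1.81, where 7.78% of 13593 rows were higher by this rule. Epas1, Vegfa and Egln1 were lower, with log2 differences of -2.37, -1.47 and -1.39, where 14.0% of all rows were lower. Epas1 and Vegfa reached the minimum FPKM only with the M0 libraries counted, where they were high, so the filter itself favours a lower value for them. Between M1+PBM and M0, 0 members were higher by this rule, where 7.1% of 13583 rows were, and the same 3 were lower, with log2 differences of -2.32, -1.77 and -1.35, where 10.5% of all rows were. Hif1a had a log2 difference of 0.84 there, without overlap. Without M0 replicate 3, the log2 differences of Hif1a were 2.0 for M1 and 1.03 for M1+PBM, and the count of members higher in M1+PBM by this rule was 1, Hif1a.

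These differences depend on how the tables are scaled. The median log2 difference from M0 over all rows was -0.35 for M1 and -0.28 for M1+PBM, and 0.04 and 0.03 when the 9 libraries were scaled by their median of ratios. With that scaling, Hif1a was at 2.28 and 1.22, Epas1 at -2.05 and -2.03, Vegfa at -1.12 and -1.49, and Egln1 at -0.97 and -0.99 in M1 and M1+PBM, so that Hif1a then passed the 2-fold rule in M1+PBM too and Egln1 no longer reached it in either group. The small differences of Arnt and Hif1an changed sign, from -0.11 to 0.31 and from -0.37 to 0.07 in M1. Vhl went from 0.15 to 0.58 and Egln2 from 0.28 to 0.76, both higher in M1 than in M0 under either scaling.

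The order of the 10 levels differed between the groups. In M0, Egln2 had the highest mean FPKM at 16.1 and its range overlapped that of Hif1a, the next, while Egln1 at 8.97, Hif1an at 7.69, Epas1 at 6.29, Vhl at 5.68, Arnt at 5.31 and Vegfa at 4.46 each overlapped the gene below, and Bnip3 at 3.87 lay clear of Egln3 at 0.200. In M1, Hif1a stood first at 46.5 and clear of Egln2 at 20.0, which was clear of Vhl at 6.48, Bnip3 at 6.35 and Hif1an at 5.74. In M1+PBM, Hif1a at 23.3 and Egln2 at 18.6 kept these places without overlap. Vegfa, Epas1 and Egln3 were the lowest 3 in both stimulated groups, with means of 0.978, 0.361 and 0.267 in M1 and 0.609, 0.410 and 0.167 in M1+PBM.

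Around the members, 7 lists of pathway genes were described by their counts beside those of all 12238 rows tested, of which 4212 had a log2 fold change of M1+PBM against M1 below 0 and 8026 above 0, with a median of 0.06. The split of all rows depends on the scaling: 366 of 543 rows with an unadjusted p of 0.05 or less (67.4%) were higher as deposited, 45.6% after median-of-ratios scaling and 50.6% after quantile normalization. As deposited, 1.45% of all rows were lower and 2.99% higher with an unadjusted p of 0.05 or less by limma. These shares stand beside the counts of every list. In none of the lists did a gene have a limma adjusted p under 0.05.

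Of 13 partners of HIF and subunits of the VHL ligase listed, 11 were tested. The log2 fold change on log2(FPKM + 1) was below 0 for 6 and above 0 for 5, with a median of -0.02, and 0 reached an unadjusted p of 0.05 or less. The most negative were Cited2, a competitor for the HIF coactivators, at -0.54 (SE 0.467), and the chaperone Hsp90aa1 at -0.35 (SE 0.294). The most positive were the coactivator Ep300 at 0.10 and the ligase subunit Elob at 0.09. The value of Cited2 rested on M1+PBM replicate 3, where its FPKM was 1.62 against 6.21 and 8.32 in the other M1+PBM libraries, and without that library its log2 fold change was 0.01.

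Of 13 other oxygen-dependent dioxygenases listed, 10 were tested, with 6 below 0 and 4 above 0 on this scale, a median of -0.04, and 0 with an unadjusted p of 0.05 or less. They were led by Jmjd6, a lysyl hydroxylase, at -0.21 (SE 0.102) and Tet2, which oxidizes methylcytosine, at -0.20 (SE 0.217). Kdm6a, a histone H3 demethylase, stood at the other end at 0.31 (SE 0.231), with the collagen lysyl hydroxylase Plod1 at 0.12 (SE 0.397).

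Of 23 listed HIF targets outside glycolysis, 17 were tested. The log2 fold change was below 0 for 12 of them and above 0 for 5, with a median of -0.28. The most negative were Edn1, the vasoconstrictor endothelin-1, at -1.21 (SE 0.643) and Hilpda, a lipid droplet protein, at -1.13 (SE 0.490). Edn1 had an FPKM of 11.2, 19.1 and 2.86 in M1+PBM, and without M1+PBM replicate 3 its log2 fold change was -0.54. Hilpda had an FPKM of 15.2, 3.16 and 11.2 in M1 and of 3.74, 2.49 and 3.73 in M1+PBM, so that M1 replicate 2 lay among the M1+PBM libraries. The most positive were the chemokine receptor Cxcr4 at 0.45 (SE 0.305) and the mitophagy receptor Bnip3l at 0.16 (SE 0.153). With an unadjusted p of 0.05 or less, 2 were lower, where 1.45% of all rows were, and 0 were higher, where 2.99% were. The 2 lower targets were named after their values were seen. They were Bhlhe40, a transcriptional repressor, at -0.71 (limma, unadjusted p = 0.0404, adjusted p = 0.900), and Ccng2, an atypical cyclin, at -0.28 (limma, unadjusted p = 0.0438, adjusted p = 0.900).

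All 18 glycolytic targets listed were tested, and the log2 fold change was below 0 for 16 and above 0 for 2, with a median of -0.19. Leaving out 1 library moved this median between -0.39 (without M1+PBM replicate 3) and -0.07 (without M1 replicate 3), and it was also closer to 0, at -0.084 without M1+PBM replicate 1 and -0.085 without M1+PBM replicate 2. Under TPM, median-of-ratios and quantile scaling, 15, 17 and 14 of the 18 were below 0, as were 12, 13 and 13 of the 17 other targets. Under these scalings, in the same order, 3555, 6296 and 5548 of all 12238 rows were below 0, beside 4212 as deposited. Slc2a1, the glucose transporter GLUT1, had an FPKM of 31.6, 17.9 and 42.9 in M1 and of 15.3, 13.9 and 24.7 in M1+PBM, and its log2 fold change was -0.71 (SE 0.349). Slc16a3, the lactate exporter MCT4, had an FPKM of 12.8, 3.15 and 22.2 in M1 and of 3.97, 2.85 and 15.2 in M1+PBM, at -0.70 (SE 0.770). Both pairs of groups overlapped. With an unadjusted p of 0.05 or less, 0 were lower, where 1.45% of all rows were, and 1 was higher, where 2.99% were. The 1 higher was Pfkfb4, a regulator of fructose 2,6-bisphosphate, at 0.48 (limma, unadjusted p = 0.0357, adjusted p = 0.900). Gpi1, glucose-6-phosphate isomerase, was at 0.06 and at -0.02 after median-of-ratios scaling.

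**Figure D3:**
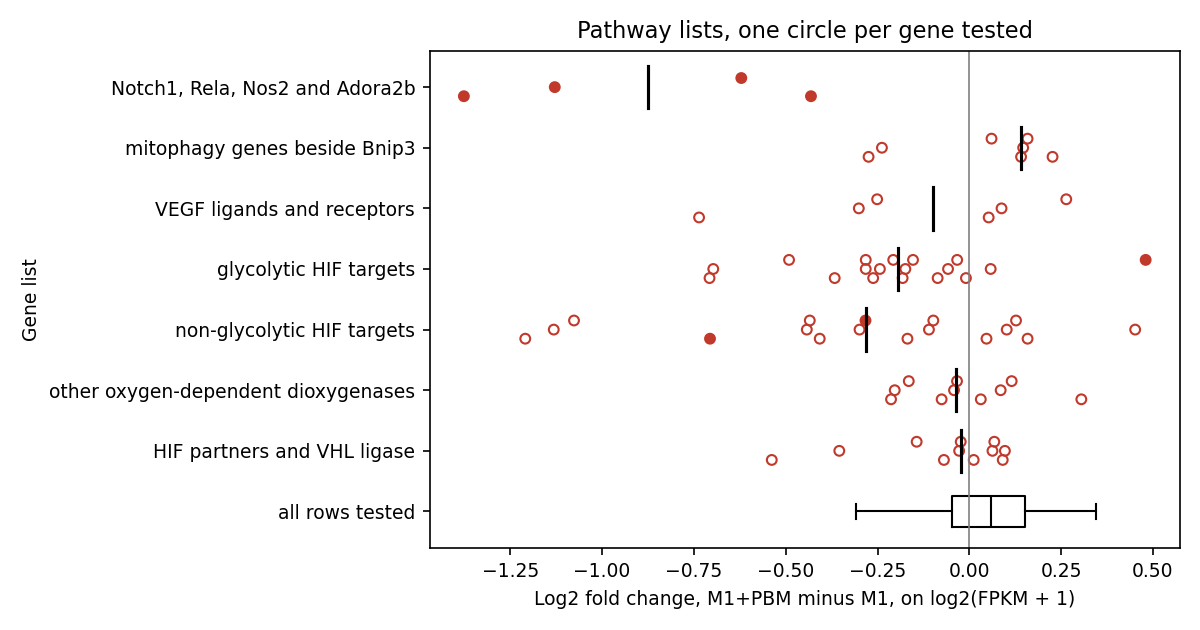
Log2 fold change of M1+PBM against M1 on log2(FPKM + 1) (horizontal) for the genes tested in 7 pathway lists (vertical); filled circles have an unadjusted limma p of 0.05 or less, black bars are list medians, and the box gives the quartiles of all rows tested with whiskers from the 5th to the 95th percentile. The medians of the non-glycolytic and glycolytic targets, -0.28 and -0.19, lie below 0 beside a median of 0.06 for all rows.

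Replicate 2 was the lowest library of both stimulated groups for many HIF targets. Of the 35 targets tested, M1 replicate 2 was the lowest M1 library for 24, which is 68.6%, where it was lowest for 26.7% of all rows, and M1+PBM replicate 2 was the lowest for 23, which is 65.7%, where it was lowest for 35.5% of all rows. Replicate 2 was lowest in both groups for 18 of the 35, or 51.4%, beside 15.8% of all rows. M1+PBM replicate 3 was the highest for 27 of the 35, or 77.1%, where it was the highest for 40.8% of all rows. Across the M1 libraries, the median deviation of the glycolytic targets from their own means was 0.22, -0.29 and 0.39 on the log2 scale, and across the M1+PBM libraries -0.24, -0.34 and 0.28. For the non-glycolytic targets it was 0.33, -0.03 and 0.03 in M1 and -0.07, -0.17 and -0.10 in M1+PBM, so their median did not repeat the high replicate 3. Hif1a did not share this order, with deviations of 0.58, 0.46 and 0.42 in M1 and of -0.65, -0.40 and -0.40 in M1+PBM.

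**Figure D4:**
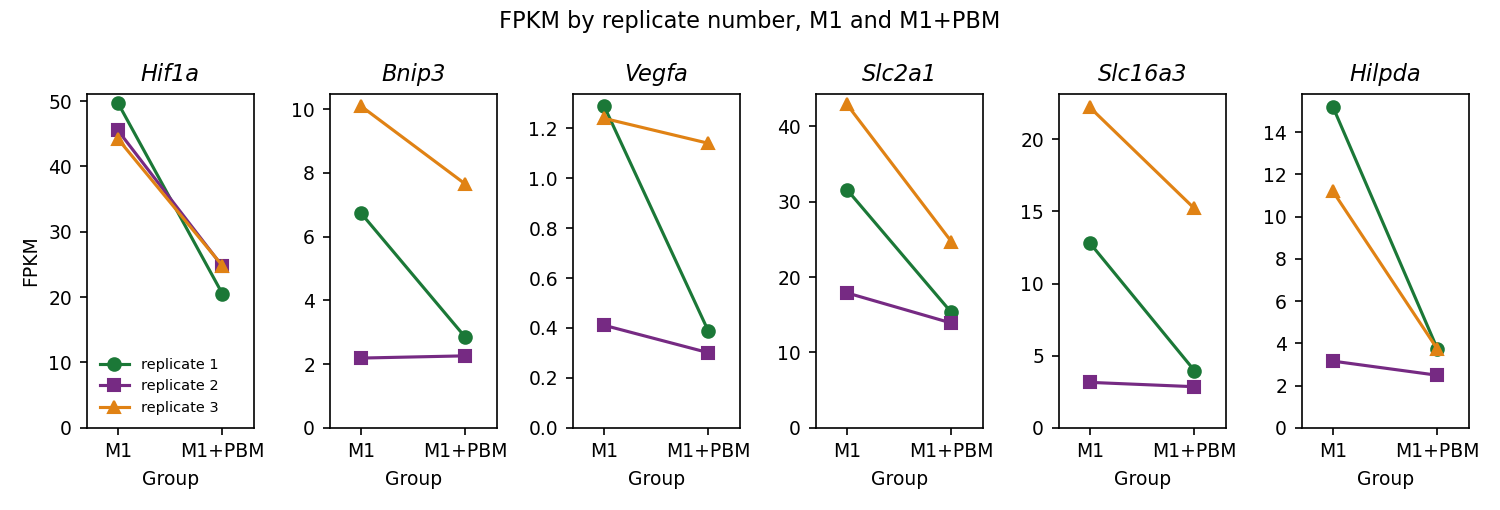
FPKM (vertical, linear from 0) of Hif1a and 5 HIF targets in M1 and M1+PBM (horizontal); lines join libraries of the same replicate number. The 3 lines of Hif1a run close together, from between 44.2 and 49.7 to between 20.5 and 24.8. The 5 targets shown start far apart, with replicate 2 the lowest in M1 for all 5. These 5 were picked for display and do not stand for all targets. Of the 35 listed targets tested, M1 replicate 2 was the lowest M1 library for 24.

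With the replicate number as a block, more targets passed an unadjusted p of 0.05 or less, and so did more of all rows tested, 988 in place of 543. Among the non-glycolytic targets 5 in place of 2 were lower, where 3.24% of all rows were lower, and 0 were higher, where 4.84% were higher. Those added included Hilpda and Fam162a, a mitochondrial protein, at -0.41. Among the glycolytic targets 2 in place of 0 were lower, Slc2a1 and the hexokinase Hk1 at -0.28, and Pfkfb4 was again the 1 higher. Kdm6a among the dioxygenases was added to the higher and Vegfc among the VEGF genes to the lower. Every adjusted p of these genes in the limma fit with the block was 0.577.

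In the list of VEGF ligands and receptors, which holds Vegfa itself, 6 of 10 genes were tested, and the log2 fold change was below 0 for 3 and above 0 for 3, with a median of -0.10 and 0 with an unadjusted p of 0.05 or less. Without Vegfa, 2 of 5 were below 0 and 3 above, with a median of 0.05. Vegfc, a lymphangiogenic ligand, was at -0.74 (SE 0.534) and the receptor Kdr at -0.25 (SE 0.369), while the coreceptor Nrp1 was at 0.26 (SE 0.225) and the ligand Vegfb at 0.09 (SE 0.235). Of 7 further mitophagy genes tested, from 8 listed, 2 were below 0 and 5 above, with a median of 0.14 and 0 with an unadjusted p of 0.05 or less. The cargo receptor Sqstm1 at -0.27 (SE 0.124) and Map1lc3b, an autophagosome membrane protein, at -0.24 (SE 0.158) were the most negative, and the kinase Pink1 at 0.23 (SE 0.216) and Bnip3l at 0.16 the most positive.

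A heat map of the study showed Hif1a together with Notch1, a receptor of cell contact signalling, Rela, the p65 subunit of NF-κB, Nos2, the inducible nitric oxide synthase, and Adora2b, an adenosine receptor. All 4 had a log2 fold change below 0 with an unadjusted p of 0.05 or less by limma, where 1.45% of all rows did. The median of the 4 was -0.88. The heat map was drawn from these samples, so the direction of these genes and counts among them are not independent evidence. By RT-PCR the study also reported lower Notch1, Hif1a and Nos2 RNA with PBM. By western blot it reported less HIF-1α, phosphorylated p65 and inducible nitric oxide synthase, and no effect on NF-κB protein itself. Its timed synthase blots of cultured cells came later than the 12 h of these libraries, and the HIF-1α and p65 blots carry no time. The study also reported less cleaved Notch1 protein with PBM. In its further blots, HIF-1α protein was lower with a Notch inhibitor and higher with added Notch1 intracellular domain. Notch1 had an FPKM of 39.7, 35.5 and 37.4 in M1 and of 25.3, 22.9 and 23.9 in M1+PBM, at -0.62 (SE 0.095, adjusted p = 0.809 by limma). Adora2b had an FPKM of 30.8, 31.3 and 34.3 in M1 and of 14.1, 15.4 and 13.0 in M1+PBM, at -1.13 (SE 0.102, adjusted p = 0.121 by limma). Rela was at -0.43 (SE 0.123) and Nos2 at -1.38 (SE 0.38), each with an adjusted p of 0.900 by limma. In all 4 the groups did not overlap, where 2.52% of all rows were lower without overlap. Nos2 had an FPKM of 290.0, 112 and 284 in M1 and of 88.1, 88.8 and 65.9 in M1+PBM, so its M1 replicate 2 lay nearest to the M1+PBM libraries. The summed M1 markers, which include Nos2, also moved between these groups, and their part in the values of Hif1a was not tested.

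Against M0, the direction of the target lists depended on the scaling. Of 18 glycolytic targets kept, the log2 difference of M1 from M0 was above 0 for 7 and below 0 for 11, with 2 and 1 at least 2-fold apart without overlap and a median of -0.08. After median-of-ratios scaling, 14 were above 0 and 4 below, with a median of 0.43. Of 18 non-glycolytic targets kept, 6 were above 0 and 12 below, with 2 and 6 past that rule and a median of -0.37. After median-of-ratios scaling 8 were above 0 and 10 below, with a median of -0.04. Among those past the rule, Ndrg1 and Mxi1 reached the minimum FPKM only with M0 counted, and Edn1 only with M1 counted. The filter itself thus favours their directions, and these counts are a description. By the same rule, 7.78% of all rows were higher and 14.0% lower as deposited. Of all 13593 rows, 3646 were above 0 and 9947 below as deposited, and the median moved from -0.35 to 0.04 with that scaling. The mean FPKM of the glucose transporter Slc2a1 (± SD, n = 3 each) was 14.9 ± 4.16 in M0, 30.8 ± 12.5 in M1 and 18.0 ± 5.92 in M1+PBM.

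By the root mean square difference of log2(FPKM + 1), centred on the mean of each gene over the 9 libraries, 5 of 13915 rows were the most like Hif1a. They were Flrt3 (0.201), a transmembrane protein, Olr1 (0.212), the receptor LOX-1 for oxidized low-density lipoprotein, Dgat2 (0.227), which makes triglycerides, and the loci Gm31748 (0.231) and Gm37847 (0.231). The median over all rows was 0.922. The first 3 had a far lower level than Hif1a, with a mean FPKM of 2.55, 2.18 and 2.50 in M1, of 1.22, 0.689 and 1.12 in M1+PBM, and of 0.290, 0.0859 and 0.153 in M0. On plain FPKM, their M1 mean was a larger multiple of their M0 mean than the 3.62 of Hif1a. Their likeness on log2(FPKM + 1) thus depends on the pseudocount of 1. Gm31748 and Gm37847 had nearly equal values in every library, 4.51 and 4.67 on average in M1, and may share reads.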

How the data were processed

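The deposited values are FPKM, in a table of the M0 libraries and a separate table of the M1 and M1+PBM libraries, each of 55655 rows. The labels name strand-specific libraries, and the study's methods name Illumina sequencing and Cufflinks methods for the values. The submitters' processing notes name Bowtie 0.12.2 and the build mm9 without a role; 320 row names have the MSTRG form of an assembler. The annotation and filters are not given in the sources used here. Because the build of the tables is uncertain, no coordinates of their rows are printed. Symbols from GENCODE M21 matched 55154 rows. FPKM is not a count, and most low values were not whole multiples of 1 fragment (32.8% to 35.4% were, within 0.05, where an even spread gives 10%), so no count test was run.

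For M1+PBM against M1, limma 3.58.1 was used in R 4.3.3 (lmFit, eBayes with a trend, two-sided) on log2(FPKM + 1), over the 12238 rows that reached an FPKM of 1 in 3 or more of the 6 libraries, with Benjamini-Hochberg adjustment over all of them. A pseudocount of 1 understates the fold change of low genes. Printed SE values and intervals come from this fit, which does not pair the replicates. Exact permutation tests used scipy 1.17.1. Scripts were tested on simulated data. M0 was compared without a test, with the same minimum over the 6 libraries compared.

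The members, lists and tests were chosen with earlier results of these data known. Named genes were the members, Notch1, Rela, Nos2 and Adora2b, the 2 most negative and 2 most positive tested genes of each other list, and the 5 rows most like Hif1a. Replicate numbers come from the labels. Deviations from the group means correlated across genes between same-numbered M1 and M1+PBM libraries (r = 0.157, 0.469 and 0.462) and between -0.491 and 0.033 otherwise, so the numbers were taken to pair the libraries, and the replicate number was added as a block in a further fit. The other alternatives changed the scaling (TPM, median-of-ratios or quantile), the pseudocount (0.1), the filter (none, or a mean FPKM of 5) or the trend of eBayes (none), or left out each library in turn. The values of 1 listed gene are not reported here.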

Additional observations from a re-analysis of the deposited data

How the results depend on the processing

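Over 896 values recomputed under an alternative, 828 stayed the same by the rules below, 45 moved further and 23 changed sign. The 23 were all single-gene fold changes of M1+PBM against M1. For such fold changes, the same meant an unchanged sign and side of a limma adjusted p of 0.05. No named gene passed that p under any setting, so the 828 do not measure how far fold changes moved. Differences from M0 and list medians were the same within the replicate spread, and their small sign changes are not among the 23. The count of members at a limma adjusted p under 0.05 was 0, and that with an unadjusted p of 0.05 or less was 1, under all 14 alternatives. The log2 fold change of Hif1a lay between -1.05 and -0.88, with adjusted p from 0.211 to 0.995 by limma. The count of members past the fold and p thresholds of the study was 1 with median-of-ratios scaling and 0 to 1 when 1 library was left out (1, Hif1a, without M1 replicate 3, M1+PBM replicate 2 or M1+PBM replicate 3). The count of members without overlap was 1 to 2 when 1 library was left out, with Vegfa added without M1 replicate 2 or M1+PBM replicate 3. Groups overlap less easily with fewer libraries. The share of all rows was not counted under these settings, so nothing is read from the added gene. With the replicate block the adjusted p of Hif1a was 0.531 by limma, and the block changed no call of a member. With median-of-ratios scaling Arnt was at -0.065, Egln1 at -0.011, Hif1an at -0.054 and Gpi1 at -0.020; with quantile normalization Arnt was at -0.058, Egln1 at -0.017 and Hif1an at -0.031. With 1 library left out, Arnt ranged from -0.043 to 0.045, Egln1 from -0.019 to 0.128, Egln2 from -0.192 to 0.063, Hif1an from -0.040 to 0.078, Cited2 from -0.905 to 0.011, Elob from -0.003 to 0.166, Tet2 from -0.366 to 0.048, Plod1 from -0.194 to 0.447, Gpi1 from -0.125 to 0.157, Kdr from -0.523 to 0.167 and Vegfb from -0.179 to 0.275. The causes were not tested. A pseudocount of 0.1 put the log2 difference of Epas1 between M1 and M0 at -3.73, from -2.37. Egln3, at no more than 36 fragments in a library, was too shallow to compare.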
